A study of Mus musculus with 28 samples.

Results

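Oct4 ChIP-seq of WT and Spen KO mouse embryonic stem cells gave 4 peak lists, and 1 of them, WT replicate 1, was made up mostly of promoter peaks that no other list held. A peak was a member of this set where it lay on an autosome within 1000 bp of the transcription start site (TSS) of a protein-coding gene and overlapped no peak of WT replicate 2, Spen KO replicate 1 or Spen KO replicate 2 by even 1 bp. By this rule 1079 of the 1806 peaks of WT replicate 1 were members, out of 11562 Oct4 peaks in the 4 lists. The cells were HATX mESCs, a haploid line with a doxycycline-inducible Xist transgene, grown in serum and LIF. The WT libraries came from HATX WT cells and the Spen KO libraries from clone 2 of HATX cells in which most of the Spen gene is deleted, so the Spen KO group is 1 clone and both genotypes carry the transgene. Each genotype had 2 Oct4 libraries, each with its own input, and H3K4me3, H3K27Ac and H3K9me3 lists of the same 2 genotypes were used to describe the chromatin at the peaks. The labels give no doxycycline treatment for these libraries. The deposited lists hold no read counts, so the depth of each library is unknown. The members were chosen by their Oct4 peak calls in the 4 lists and their distance to a TSS, and these values are given as a description with no test.

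Oct4, also named Pou5f1, is a POU-domain transcription factor that keeps embryonic stem cells pluripotent. It binds the octamer ATGCAAAT, often beside Sox2, and in these cells it is known mainly for enhancers away from promoters. Promoters of broadly expressed genes usually lie in CpG islands, carry H3K4me3, and hold short elements close upstream of the start site such as the GC box, GGGCGG, bound by Sp1 and its relatives, and the CCAAT box, bound by the trimeric factor NF-Y.

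The sequences that follow show how the CCAAT box, whose frequency is given further on, lies under strong members. Each line below is the stretch of 120 bp around the summit of a member among the 10 with the highest fold enrichment over input, read 5′ to 3′ on the strand of the nearest gene from mm9, with each CCAAT box in capitals (CCAAT, or ATTGG where it lies on the other strand). Shown are the 7 members of these 10 with a CCAAT box in the stretch and no UTR sequence. Ggct also has a box there but reaches into a UTR, and Asah1 and Pdcd10 have none in the stretch.

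Khsrp, chr17:57171006-57171125, minus strand: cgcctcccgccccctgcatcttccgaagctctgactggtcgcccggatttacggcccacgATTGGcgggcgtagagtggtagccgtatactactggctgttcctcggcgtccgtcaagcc
Mtmr4, chr11:87405407-87405526, plus strand: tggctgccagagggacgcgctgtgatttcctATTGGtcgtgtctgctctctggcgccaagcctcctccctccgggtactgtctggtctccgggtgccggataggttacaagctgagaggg
Mbd3, chr10:79862378-79862497, minus strand: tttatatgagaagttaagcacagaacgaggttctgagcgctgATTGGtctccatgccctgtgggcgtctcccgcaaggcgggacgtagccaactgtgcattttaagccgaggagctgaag
Gatad2a, chr8:72520298-72520417, minus strand: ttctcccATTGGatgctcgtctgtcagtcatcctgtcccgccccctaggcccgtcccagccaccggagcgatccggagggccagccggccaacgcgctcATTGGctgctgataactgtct
Clic4, chr4:134828806-134828925, minus strand: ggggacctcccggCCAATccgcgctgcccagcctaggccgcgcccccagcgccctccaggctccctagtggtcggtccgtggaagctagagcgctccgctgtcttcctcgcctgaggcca
Kdm4b, chr17:56465201-56465320, plus strand: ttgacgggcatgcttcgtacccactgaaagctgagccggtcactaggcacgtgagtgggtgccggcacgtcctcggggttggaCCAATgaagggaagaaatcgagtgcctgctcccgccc
Ypel5, chr17:73185670-73185789, plus strand: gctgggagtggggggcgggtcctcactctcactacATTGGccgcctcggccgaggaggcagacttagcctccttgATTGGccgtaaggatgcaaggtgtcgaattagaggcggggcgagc

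The octamer was rare in the set. In the 2 stretches that follow it lies within the 120 bp around the summit, and the capitals mark ATGCAAAT only, not CCAAT boxes. Plekhg2, Pim1 and 1810027O10Rik, also among the strongest members with an octamer, have it outside this stretch and are not shown.

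E2f3, chr13:30078026-30078145, minus strand: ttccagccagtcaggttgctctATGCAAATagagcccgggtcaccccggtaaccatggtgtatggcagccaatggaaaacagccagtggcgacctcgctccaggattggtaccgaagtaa
Prrc2a, chr17:35301954-35302073, minus strand: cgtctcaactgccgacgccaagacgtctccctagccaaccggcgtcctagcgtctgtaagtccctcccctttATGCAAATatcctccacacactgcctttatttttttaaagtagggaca

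WT replicate 1 stood apart from the other 3 libraries in where its peaks lay. It had the shortest list, with 1783 autosomal peaks against 4045, 2587 and 2966 in WT replicate 2, Spen KO replicate 1 and Spen KO replicate 2. Of these, 1237 (69.4%) were within 1000 bp of a TSS, whereas the share in the other 3 lists was 17.3%, 22.8% and 17.8%. Of the 1237 promoter peaks 1079 (87.2%) overlapped no other list, and the corresponding counts were 486 of 701 (69.3%), 347 of 590 (58.8%) and 205 of 529 (38.8%) in the other libraries. Away from promoters WT replicate 1 did not have the highest share of peaks of its own: 199 of its 546 other peaks (36.4%) were in no other list, against 49.9%, 31.0% and 28.6%. Of the 158 promoter peaks that WT replicate 1 shared, 137 overlapped a peak of Spen KO replicate 2, 71 one of Spen KO replicate 1 and 56 one of WT replicate 2. The members rest on 1 library, so no count of them has a replicate check.

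**Figure D1:**
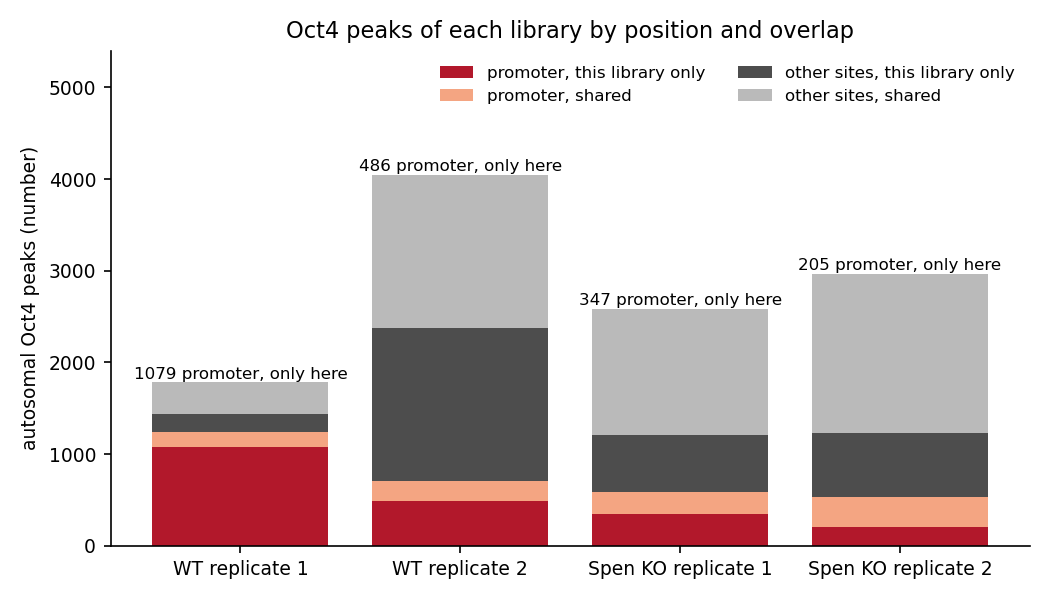
Number of autosomal Oct4 peaks in each of the 4 libraries, stacked by whether a peak lay within 1000 bp of a protein-coding TSS (promoter) or elsewhere and whether it overlapped a peak of another library. The 1079 promoter peaks found only in WT replicate 1 make up most of its bar, against 486, 347 and 205 in the other libraries.

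The members were moderate peaks of their own list. Their fold enrichment over input at the summit ranged from 3.75 to 11.3 with a median of 6.69, their −log10 q from 2.12 to 12.7 with a median of 5.09, and their median width was 186 bp. They were spread over the whole strength of the list. With its autosomal peaks cut by fold enrichment into 4 groups of equal size, members made up 55.2%, 62.6%, 63.1% and 61.2% from the weakest to the strongest. Most had no Oct4 peak of another library nearby: the nearest was a median of 106577 bp away, and 17 members had one within 200 bp and 58 within 1000 bp. Cdca3 and Sec61a1 held the members nearest to another library's peak, with 22 and 28 bp between them, and Nrarp and Ncl held the promoter peaks of WT replicate 1 that were left out for the smallest overlaps, 10 and 13 bp. At the other limit of the rule, the members at Zbtb7b and Zbtb2 lay 968 and 940 bp from a TSS, and the first peaks past 1000 bp, at Mex3b and Nadk, lay 1004 and 1033 bp away.

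The members sat just upstream of the start site. The rule allowed a peak anywhere within 1000 bp on either side. The summits had a median position of −89 bp relative to the nearest TSS (middle 50% from −154 to −23 bp), 865 of 1079 (80.2%) were upstream, and 910 (84.3%) were within 250 bp. The 158 shared promoter peaks of the same library had a like median of −91.5 bp with 75.3% upstream. Promoter peaks found only in WT replicate 2, Spen KO replicate 1 or Spen KO replicate 2 had medians of 213, 192 and 223 bp downstream of the TSS, and 30.5%, 30.8% and 28.8% of them were upstream. The summits of 813 members (75.3%) fell outside annotated protein-coding genes, 163 in UTRs, 94 in introns and 9 in coding exons. Of the promoter peaks found only in the other 3 libraries 27.2%, 26.5% and 24.9% fell outside such genes. A divergent promoter, where another gene starts within 1000 bp upstream on the opposite strand, was present at 126 members (11.7%), close to the 11.2% of all TSSs inside a WT H3K4me3 peak, and at 4.12%, 5.19% and 2.93% of the peaks found only in the other libraries.

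**Figure D2:**
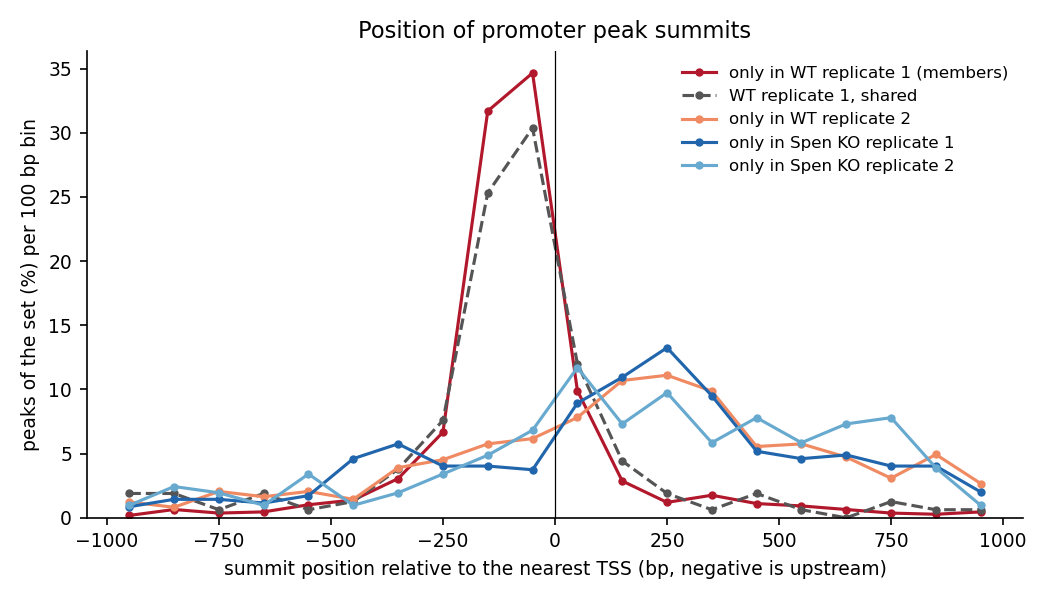
Percentage of promoter peaks in each 100 bp bin of summit position relative to the nearest protein-coding TSS (x axis in bp, negative upstream), for the members, the shared promoter peaks of WT replicate 1 and the peaks found only in each other library. The WT replicate 1 sets peak between 0 and 200 bp upstream, with 31.7% and 34.7% of the members in the bins centred at −150 and −50 bp, and the other 3 sets are broad and lie mostly downstream.

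Nearly all members lay in H3K4me3. A WT H3K4me3 peak overlapped 1063 of 1079 members (98.5%, 95% Wilson interval 97.6 to 99.1) and a Spen KO H3K4me3 peak 1040 (96.4%). Both lists covered 1036 members, only the WT list 27, only the Spen KO list 4 and neither 12. The 16 members without a WT H3K4me3 peak included, by fold enrichment, Gm5444 (8.65), Ccdc107 (8.08), 2610507B11Rik (7.12) and Mdc1 (6.74). Wilson intervals here and below cover counting error over peaks only, not differences between libraries.

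These H3K4me3 peaks were among the wider and stronger ones, as were those under the promoter peaks of the other libraries. WT H3K4me3 peaks at the members had a median width of 3274 bp. Ranked among the 13123 WT H3K4me3 peaks at autosomal promoters, they had a median width percentile of 70.6 and a median score percentile of 63.4, where the score is the mean of the 2 library scores that the deposited list gives for a peak. The width percentile was 67.4, 75.5 and 67.7 and the score percentile 59.4, 64.9 and 62.3 for peaks found only in WT replicate 2, Spen KO replicate 1 and Spen KO replicate 2, so the members lay within the range of the other libraries. A member was present at 2.67% of the narrowest 10% of promoter H3K4me3 peaks (35 of 1313) and at 15.7% of the widest 10% (206 of 1313). By score the share went from 1.60% in the weakest 10% to 12.2% in the strongest 10%. Among the members themselves, fold enrichment of Oct4 and H3K4me3 score had a Spearman's rho of −0.0251 across 1063 peaks, which share 1 library.

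**Figure D3:**
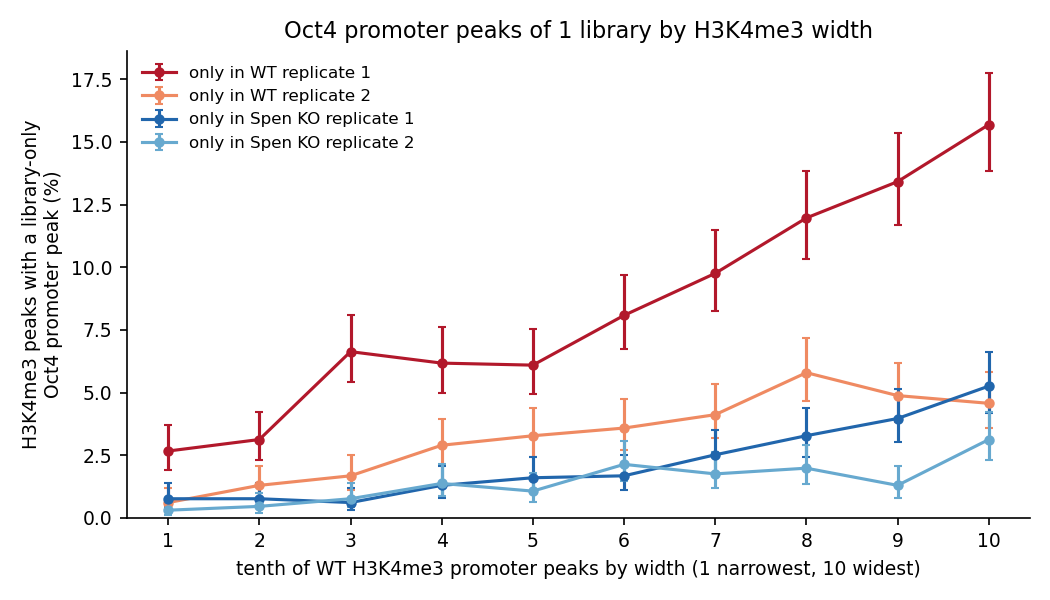
Percentage of WT H3K4me3 promoter peaks that hold a promoter peak found only in 1 Oct4 library (y axis), by width of the H3K4me3 peak in 10 equal groups (x axis, 1 narrowest), with 95% Wilson intervals as bars. The WT replicate 1 line goes from 2.67% to 15.7% and lies above the other 3 libraries in every group.

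H3K27Ac, a mark of active promoters and enhancers, covered fewer members. The WT list held a peak at 253 members (23.4%) and the Spen KO list at 328 (30.4%), although the Spen KO list is the shorter, with 11620 autosomal peaks against 13749. Both lists covered 225 members, only the WT list 28 and only the Spen KO list 103. In windows of 200 bp placed 89 bp upstream of the 10690 TSSs that lay in a WT H3K4me3 peak and had no Oct4 peak in any library, WT H3K27Ac was present at 1923 and Spen KO H3K27Ac at 2199 (20.6%). The members were thus 5.46 percentage points above these windows in the WT list (95% Newcombe interval 2.92 to 8.17) and 9.83 above them in the Spen KO list (7.05 to 12.7). Each histone list is 1 list per genotype made from 2 libraries, so the difference between the lists has no replicate check. H3K9me3, a mark of silent chromatin, was nearly absent: 2 members, at Inpp5f and 1700029J07Rik, lay in a WT H3K9me3 domain and 0 of 1079 in a Spen KO domain, which by a Wilson interval allows up to 0.355%.

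The share of library-specific promoter peaks at each mark was compared between the genotypes over the 4 Oct4 libraries. Each set was chosen by absence from every other list, that of the same genotype included, so the 4 shares are not independent. The set of WT replicate 1 is the members. The differences and p-values therefore describe these chosen sets only, and an effect of Spen was not tested by them. The share at WT H3K4me3 was 98.5% and 96.9% in WT replicates 1 and 2 and 85.3% and 94.1% in Spen KO replicates 1 and 2, with no overlap between genotypes. The means were 97.7% ± 1.13 and 89.7% ± 6.25 (SD, n = 2 each), a Spen KO minus WT difference of −7.99 percentage points (exact permutation test, two-sided, p = 0.33). Spen KO replicate 1 was the lowest library, and 43 of its 347 peaks lay in WT H3K9me3 domains. Without it the difference was −2.75 points. The share at WT H3K27Ac was 23.4% and 24.9% in the WT libraries and 43.8% and 39.5% in the Spen KO libraries, again with no overlap. The means were 24.2% ± 1.02 and 41.7% ± 3.03 (SD, n = 2 each), a difference of 17.5 points (exact permutation test, two-sided, p = 0.33). With 2 libraries against 2 the smallest p that the test allows is 0.33. The study's methods speak of technical replicates for the ChIP-seq of histone marks and the labels name no separate cultures, so the p may measure only technical spread. The octamer share was 1.02%, 1.03%, 0.865% and 1.95% in the same order, and the genotypes overlapped (difference 0.384 points, exact permutation test, two-sided, p = 1). Without Spen KO replicate 2 this difference was −0.207 points.

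The octamer share of the members differed from that of promoters in general by less than counting error. The octamer ATGCAAAT, searched on both strands in the 200 bp around the summit, was present at 11 of 1079 members (1.02%, 95% Wilson interval 0.570 to 1.82), in 0.649% of windows 1000 bp to either side of the same summits, and in 0.851% of the windows 89 bp upstream of marked TSSs without an Oct4 peak. The difference from the last was 0.168 points (95% Newcombe interval −0.321 to 0.980). The peaks of the same library that lay away from promoters and were shared with another library held it at 40 of 347 (11.5%). The Sox-Oct core, TTGTNATGC, was present at 3 members (0.278%) and at 8.65% of those shared peaks. Beside E2f3 (fold enrichment 9.61) and Prrc2a (7.31), the strongest members with an octamer were at Plekhg2 (7.31), Pim1 (7.12) and 1810027O10Rik (6.74).

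The CCAAT box was more frequent at the members than at the promoter peaks found only in any other library. CCAAT, on either strand, was present in the 200 bp around 652 of 1079 member summits (60.4%, 95% Wilson interval 57.5 to 63.3), and 385 members (35.7%) held 2 or more copies. It was present at 36.7% of the shared promoter peaks of WT replicate 1, and at 8.44%, 10.7% and 16.1% of the promoter peaks found only in WT replicate 2, Spen KO replicate 1 and Spen KO replicate 2. Because the CCAAT box has a preferred place close upstream of the TSS, windows in the same place were compared. In the 10690 windows centred 89 bp upstream of marked TSSs with no Oct4 peak it was present in 29.0%, which is 31.4 percentage points below the members (95% Newcombe interval of the difference 28.3 to 34.4), and 8.36% of these windows held 2 or more copies. Among summits 50 to 150 bp upstream of a TSS it was present at 289 of 435 members (66.4%), and at 4 of 25, 3 of 16 and 3 of 14 peaks found only in WT replicate 2, Spen KO replicate 1 and Spen KO replicate 2. The box was most frequent at the summits: 26.8% of members had one within 20 bp of the summit, against 5.10% in the bin of the same width 480 bp upstream. That bin does not match the place of the summits near the TSS. By distance from the TSS, in steps of 20 bp, the box was most frequent at −70 bp. It was present there at 15.0% of marked TSSs with a member and 6.07% of those with no Oct4 peak. The part of TSS position in the share at the summits was not tested. The study's methods name a goat polyclonal antibody against Oct4 for this ChIP. The peak lists hold no measure of which protein was precipitated. The peaks and their fold enrichment are thus named for Oct4 by the library's label and that antibody, and whether the members are sites of Oct4 was not tested.

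The GC box followed the members too, with a smaller margin. GGGCGG on either strand was present at 857 members (79.4%), at 57.7% of the windows upstream of marked TSSs without an Oct4 peak, and at 47.3%, 40.9% and 45.4% of the peaks found only in the other 3 libraries. The windows of the members were richer in G and C than those upstream windows (median 65.5% against 61.5%) and had a higher CpG observed over expected ratio (0.821 against 0.746), and the part of this composition in the GC box share was not tested. The shares of 6 other promoter elements were at or below those of the upstream windows. The ETS motif CCGGAAG was present at 11.3% against 13.5%, the NRF1 motif GCATGCGC at 2.22% against 4.33% and the cyclic AMP response element TGACGTCA at 1.67% against 3.15%. The YY1 motif AAGATGGCG was present at 0.927% against 0.945%, the E-box CACGTG at 7.69% against 7.77% and the TATA box TATAAA at 2.22% against 4.39%. When all 2080 words of 6 letters, each taken with its reverse complement, were ranked by the difference between members and upstream windows, the first was GCCAAT (38.0% against 14.7%), the next CCAATC (38.0% against 15.5%) and the third GGGCGG, and 4 of the 10 highest held CCAAT.

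**Figure D4:**
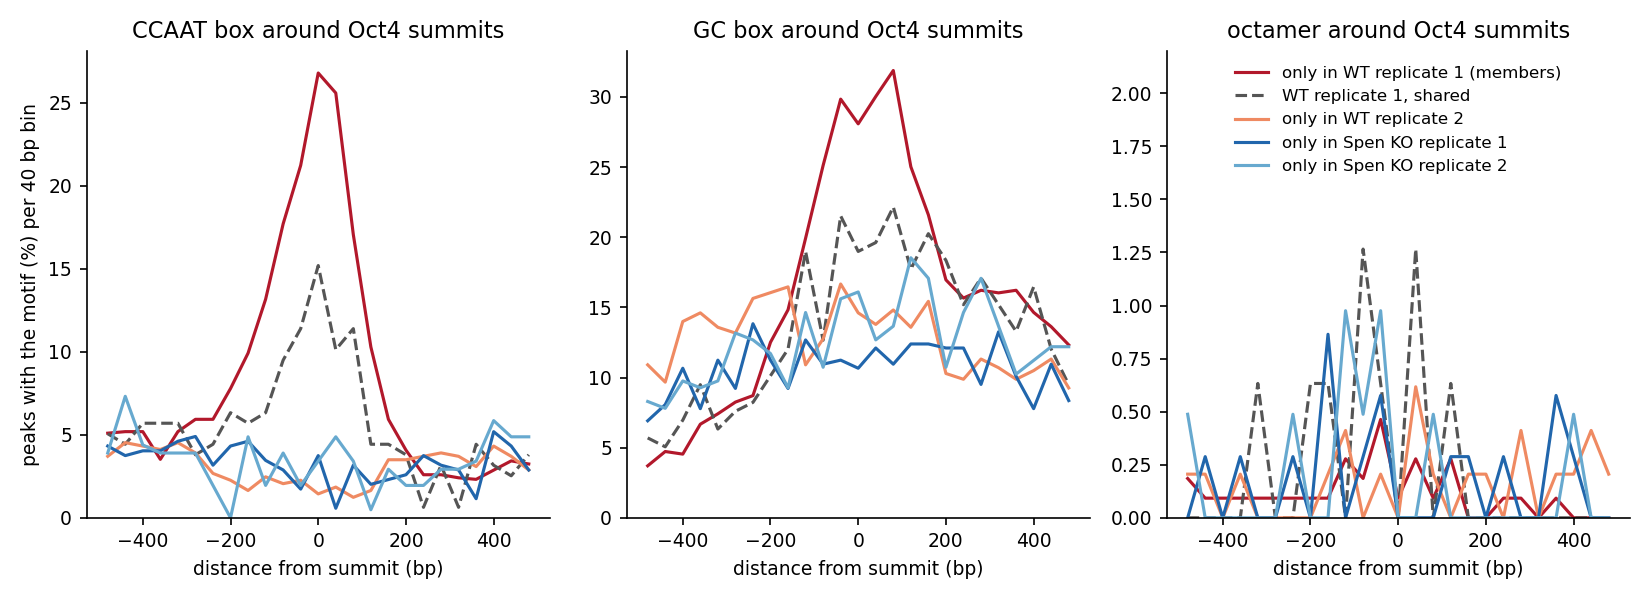
Percentage of promoter peaks with a CCAAT box, GC box or octamer in each 40 bp bin around the Oct4 summit (x axis in bp, negative towards upstream of the nearest gene), for the members, the shared promoter peaks of WT replicate 1 and the peaks found only in each other library; the 3 panels have different y axes. The CCAAT box reaches 26.8% of the members at the summit and at most 7.32% of the peaks found only in another library, while the octamer is at or below 0.463% of the members in every bin.

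The same relation held from the side of the genes. Of 21418 autosomal protein-coding genes 1243 (5.8%) had a member within 1000 bp of the TSS, made up of 1209 of the 13048 with the TSS in a WT H3K4me3 peak (9.27%) and 34 of the other 8370 (0.406%). Of the marked genes with no CCAAT box in the 200 bp upstream of the TSS 542 of 8990 (6.03%) had a member, with 1 box 310 of 2739 (11.3%), with 2 boxes 210 of 923 (22.8%), and with 3 or more 147 of 396 (37.1%, 95% Wilson interval 32.5 to 42.0). Over the same classes the share of genes with a peak found only in WT replicate 2 went from 3.82% to 1.52%, in Spen KO replicate 1 from 2.65% to 1.52% and in Spen KO replicate 2 from 1.67% to 1.01%. The last shares rest on 6, 6 and 4 of 396 genes. For both Spen KO libraries the Wilson intervals of the first and last class overlapped. The order of the classes was also present with and without H3K27Ac at the TSS, where the member share is 11.2% and 8.86% over all: marked genes with WT H3K27Ac went from 8.01% with no box to 39.0% with 3 or more, and those without it from 5.60% to 36.7%. Among marked genes with neither a CCAAT nor a GC box in these 200 bp the share was 3.64%, with a GC box alone 7.73%, with a CCAAT box alone 11.5% and with both 20.1%.

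**Figure D5:**
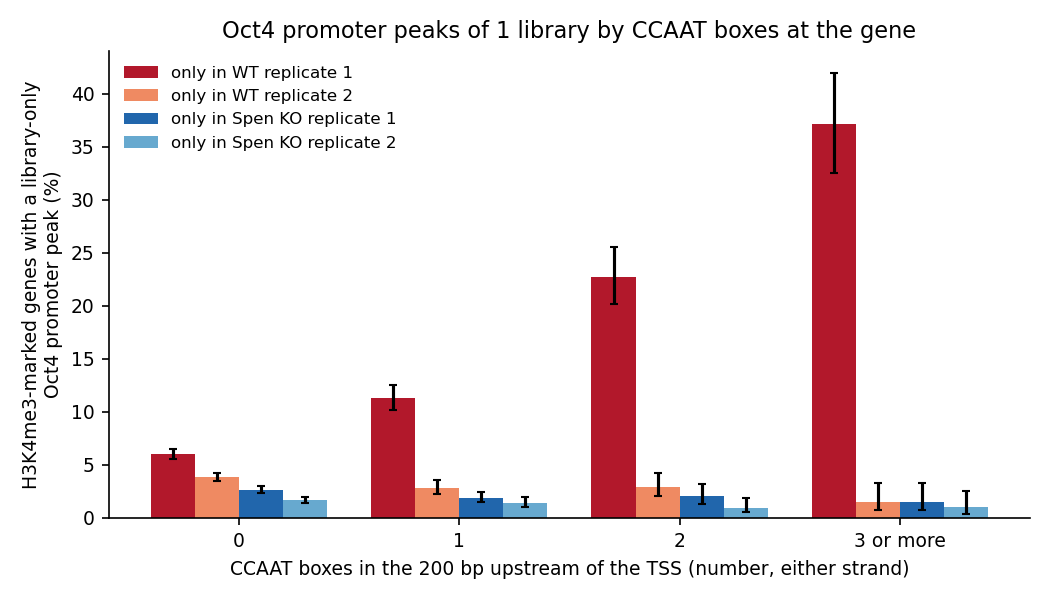
Percentage of genes with an H3K4me3-marked TSS that had a promoter peak found only in 1 Oct4 library (y axis), by number of CCAAT boxes in the 200 bp upstream of the TSS (x axis), with 95% Wilson intervals as bars. The share goes from 6.03% to 37.1% for WT replicate 1. It is lower with 3 or more boxes than with none for each of the other 3 libraries, with overlapping intervals for both Spen KO libraries.

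The 1079 members had 1068 nearest genes, of which 11 were nearest to 2 members. Of all autosomal protein-coding genes 5.8% had a member, and of those with the TSS in a WT H3K4me3 peak 9.27%. The rule bars a member from overlapping another library's peak, which by construction can lower the share of genes that hold both. Genes with a promoter peak found only in another library were mostly marked (454 of 471, 315 of 344 and 202 of 213), and a member was present at less than 9.27% of them. The counts were 24 of 471 such genes of WT replicate 2 (5.10%, and 1.93% of the genes with a member), 19 of 344 of Spen KO replicate 1 (5.52%, 1.53%) and 14 of 213 of Spen KO replicate 2 (6.57%, 1.13%). At the members with the highest fold enrichment, Khsrp (11.3) encodes an RNA-binding protein of splicing and mRNA decay, Mtmr4 (10.8) a phosphoinositide phosphatase, Mbd3 (10.4) and Gatad2a (10.4) subunits of the NuRD complex, Asah1 (10.2) an acid ceramidase, Clic4 (10.0) a chloride intracellular channel protein, Kdm4b (10.0) a histone demethylase and Ggct (10.0) an enzyme of glutathione turnover. Pdcd10 and Ypel5 (both 9.81) completed these 10. All 10 lay in H3K4me3 in both genotypes, and 3 of them, Khsrp, Mtmr4 and Mbd3, lay in H3K27Ac in both.

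Gene groups were read against the share of all marked genes with a member, 9.27%. Chaperones had the highest share among the 21 lists, with a member at 14 of 76 marked genes (18.4%, 95% Wilson interval 11.3 to 28.6). Hspa14 is entered under 2 gene identifiers and counted under each. The strongest were Hspa5 (fold enrichment 9.04), the major Hsp70 chaperone of the endoplasmic reticulum, Dnajc3 (8.27), its co-chaperone, and Dnajc17 (8.27). The next counts are over all genes of the list, marked or not, where the share of all autosomal protein-coding genes is 5.8%. Of 12 genes of the list whose products work in or at the endoplasmic reticulum 6 had a member, against 8 of the other 73. Besides Hspa5 and Dnajc3 these were Hspa13 (7.70), Dnajb9 (6.35), Hsp90b1 (6.35) and Dnajb11 (5.40). This split was made after the values were seen. The 6 summits lay between −125 and −21 bp, and the 200 bp upstream of Hsp90b1 held 5 CCAAT boxes, of Hspa5 and Dnajb11 3, of Dnajc3 2, of Dnajb9 1 and of Hspa13 0. The endoplasmic reticulum stress element was sought as a CCAAT box followed 9 bases later by CCACG, within 300 bp upstream of 1 TSS per gene. Copies with other letters or at other places were not sought. It lay upstream of 13 marked genes, Dnajc3 and Hsp90b1 among them. No copy in this exact form was found there for Hspa5, Dnajb11, Dnajb9 and Hspa13, which does not show that these genes lack the element. A member was present at 9 of the 13, against 1200 of the other 13035 marked genes (9.21%). The element holds a CCAAT box by definition, whereas many of the other genes had none. Of marked genes with 1, 2 and 3 or more boxes in the 200 bp upstream, 11.3%, 22.8% and 37.1% had a member. Genes of equal CCAAT content were not compared, so the part of the element itself was not tested. This element was also looked up after the chaperone values were seen.

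Other housekeeping groups lay closer to that share. Translation factors had a member at 9 of 59 marked genes (15.3%), with Eif5 (8.65), Eif4a1 (7.06) and Eif4g2 (6.55) the strongest, DNA replication factors at 6 of 39 (15.4%, interval 7.25 to 29.7), with Gins2 (7.03) and Pold1 (6.74), and genes of ubiquitin conjugation and removal at 10 of 70 (14.3%), with Ube2s (8.27), Usp22 (7.70) and Usp36 (7.59). Mitochondrial ribosomal proteins had 8 of 75 (10.7%), RNA polymerase and Mediator subunits 6 of 56 (10.7%), cytosolic ribosomal proteins 7 of 76 (9.21%), among them Rplp0 (7.62), and solute carriers 19 of 231 (8.23%), led by the mitochondrial iron importer Slc25a37 (8.94). Lower shares were found for Zfp zinc finger genes, 17 of 285 (5.96%, led by Zfp687 at 7.83), tRNA synthetases, 2 of 36 (5.56%), proteasome subunits, 2 of 45 (4.44%), splicing factors, 2 of 55 (3.64%), respiratory chain subunits, 3 of 83 (3.61%), and replication-dependent histones, 1 of 39 (2.56%). The Wilson interval of the share among marked genes included 9.27% for each of the 21 lists other than chaperones. The intervals were not adjusted for the number of lists, and with 21 of them 1 may miss 9.27% by counting error alone. Whether chaperones differ from marked genes in general was not tested. Of all 67 replication-dependent histone genes, marked or not, 3 had a member. Among these, Hist2h2aa1 and Hist2h2aa2 (both 6.74) are near-identical copies, so reads there may be split between them.

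Of 23 core pluripotency factors 3 had a member, Tbx3 (7.12), Klf2 (5.91) and Klf4 (5.59), which is 3 of the 19 that were marked (15.8%, 95% Wilson interval 5.52 to 37.6). A peak found only in WT replicate 2, Spen KO replicate 1 or Spen KO replicate 2 was present at 2, 6 and 0 of the 23. None of 40 Hox genes, 19 early lineage regulators and 16 germline genes had a member. Of these 27, 16 and 8 were marked, and the intervals of their shares reached up to 12.5%, 19.4% and 32.4%, so 9.27% lay within each interval. Promoter peaks found only in WT replicate 2, Spen KO replicate 1 and Spen KO replicate 2 were present at 16, 2 and 2 of the 40 Hox genes. They were present at 4, 0 and 0 of the 19 early lineage regulators. None of 1400 olfactory and vomeronasal receptor genes and 96 keratin genes had a member, and 6 and 12 of these carried H3K4me3 at the TSS. Of 10 genes of Spen and its corepressor partners 1 had a member, Rbm15 (6.55), which encodes an RNA-binding relative of Spen. No list was tested, and the members come from 1 library.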

How the data were processed

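ChIP-seq of Oct4, H3K4me3, H3K27Ac and H3K9me3 was used as deposited peak lists. The study's methods describe ChIP-seq of histone modifications. Alignment by the authors was to mm9 with Bowtie2, PCR duplicates were taken out with Picard, and MACS2 called the peaks with input as background. For Oct4 no separate processing is stated. Each Oct4 list is 1 library in the format of MACS2, and its deposited values are the fold enrichment (a ratio of ChIP over input) and −log10 of p and q. The H3K4me3 and H3K27Ac lists hold peaks that the authors kept at a low irreproducible discovery rate between 2 libraries. The H3K9me3 lists hold joined windows with a deposited p-value and score, which is not the format of MACS2, so their caller is uncertain. ATAC-seq, RNA-seq and CLIP data of the study were not used here.

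TSSs were the 5′ ends of 21418 autosomal protein-coding genes of GENCODE vM1, and sequence was read from the mm9 genome. Overlap meant 1 bp unless stated. A TSS was called marked where it lay inside a WT H3K4me3 peak. Motifs were searched on both strands in 200 bp windows, without overlap rules between motifs. Divergent meant a TSS of another gene starting within 1000 bp upstream on the opposite strand. Shares carry 95% Wilson intervals, differences Newcombe intervals and medians binomial order-statistic intervals. Genotypes were compared by exact permutation over the 4 Oct4 libraries (Python 3.11.15, scipy 1.17.1, samtools 1.23.1). TSS distances, overlaps of peaks and the motif search were tested on simulated data, and the confidence intervals were not. Named genes are the members with the highest fold enrichment overall and within each of 21 lists, those without WT H3K4me3, in H3K9me3, with an octamer, and nearest to each limit of the rule; others were chosen after their values were seen. The members, gene lists and motifs were chosen with earlier results of these data known, and the upstream windows, CCAAT counts and words of 6 letters were added after seeing the data. Over 2465 TSSs with an Oct4 peak in any library, the replicate 1 minus replicate 2 differences of the 2 genotypes correlated at −0.0429. Many of these TSSs had a peak in 1 library only, so this check cannot decide whether replicate numbers pair the libraries. Alternatives covered TSS distance and set, overlap, peak threshold, libraries, histone list and window. Some genes that the naming rule selects are not reported here.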

Additional observations from a re-analysis of the deposited data

How the results depend on the processing

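Of 156 values recomputed under another setting, 143 were called the same as the reported value. A share or median had to stay within the interval of the reported value, and a count within 1.5 times of it. A genotype difference had only to keep its sign, and its size was not judged. The number of members was 577 where −log10 q had to reach 5 in all 4 Oct4 lists and 559 in the stronger 50% of the WT replicate 1 list, by construction of fewer peaks; leaving out another library gave 1087 to 1150. With the Spen KO lists in place of the WT lists the share of members was 96.4% at H3K4me3, 30.4% at H3K27Ac and 0% at H3K9me3, and the median width percentile was 82.7 in the whole list, where it had been 86.5; the cause was not tested. The CCAAT box share, whose alternatives were chosen after seeing the data, was 63.7% in the stronger 50% of the list and 46.3% and 69.2% in windows of 100 and 400 bp, and the GC box share 55.3% and 90.8% in those windows, which hold fewer or more bases. The Spen KO minus WT difference in octamer share turned to −0.247 points at the stricter q. With 1 library left out it ranged from −0.207 to 0.734, the lowest without Spen KO replicate 2. The difference in H3K4me3 share was −2.75 points without Spen KO replicate 1 and −14.7 points at the stricter q. The libraries shared only a replicate number, and with the replicate block the differences were −7.99, 17.5 and 0.384 points for H3K4me3, H3K27Ac and the octamer (exact sign-flip permutation, p = 0.5, 0.5 and 1, smallest possible 0.5). Read counts were not used here, so the part of depth in which peaks a list holds was not tested.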

Other observations

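The peaks of WT replicate 1 that lay over 1000 bp from any protein-coding TSS and in no other list lay between the members and the shared peaks away from promoters in their sequence. Of these 199 peaks 135 (67.8%) lay in WT H3K4me3 and 93 (46.7%) held a CCAAT box within the 200 bp around the summit, with a median G and C content of 63.5%. The CCAAT share of the members was 60.4%. A GC box was present at 114 of the 199 (57.3%), at 79.4% of the members and at 54 of the 347 shared peaks away from promoters (15.6%). Of the same 347 peaks 92 (26.5%) lay in WT H3K4me3 and 73 (21.0%) held a CCAAT box, with a median G and C content of 49.5%. The octamer was present at 3 of the 199 (1.51%) and 40 of the 347 (11.5%). With the 5′ ends of all protein-coding transcripts in place of 1 TSS per gene, 1140 peaks of WT replicate 1 were promoter peaks in no other list.

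The X chromosome, left out of the rule, held 12 peaks of WT replicate 1, of which 8 were promoter peaks and 7 of these were in no other list. On the autosomes the number of members per 100 genes marked by H3K4me3 ranged from 6.57 on chromosome 9 to 10.9 on chromosome 12.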
